A study of Mus musculus with 46 samples.

Results

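The opioid system of the BNST, the bed nucleus of the stria terminalis and a small basal forebrain region of the extended amygdala, was read here through 7 genes. Pdyn, Penk and Pnoc encode the peptide precursors, and Oprk1, Oprm1, Oprd1 and Oprl1 encode the receptors. The members were every probeset (a set of short probes for 1 transcript region) that the platform annotation gave to 1 of these symbols alone, which yielded 13 of the 45037 probesets on the array. Pdyn, Penk, Pnoc and Oprd1 had 1 probeset each, Oprk1 had 2, Oprl1 had 3 and Oprm1 had 4.

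Adult male C57BL/6J mice, an inbred strain, had been exposed to chronic intermittent ethanol (CIE) or to air (Ctrl), and each array held the BNST RNA of 1 mouse. A cycle was 4 days of ethanol vapor for 16 h per day followed by 7 days of abstinence, and mice went through 4 cycles. CIE mice received ethanol at 1.6 g/kg with pyrazole at 1 mmol/kg, an inhibitor of alcohol dehydrogenase that holds blood ethanol steady, and Ctrl mice received saline with the same pyrazole. Mice were killed at the end of the last session (0 h) or at 8 h, 72 h or 7 d from it, which gave 8 groups, each with its own mice. Every group had 6 mice except CIE at 7 d, with 4, so that 24 Ctrl and 22 CIE mice were compared. Both arms had thus received pyrazole and repeated handling, and all mice were males of 1 strain.

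Values were log2 intensities, so a difference of 1 is a doubling, and differences are given as CIE minus Ctrl with the standard error (SE) of the fit. A probeset was called when limma, fitted to all 46 arrays and adjusted over all probesets with the Benjamini-Hochberg method, gave an adjusted p of 0.01 or less. Array medians lay between 6.78 and 6.83, and the lowest correlation of any 2 arrays was 0.981. The mean correlation of an array with the rest of its group was lowest in Ctrl at 0 h, from 0.9889 to 0.994. In CIE at 0 h it ran from 0.9963 to 0.9977. The group means of Gad1, the enzyme that makes GABA in the inhibitory neurons that dominate the BNST, lay between 12.94 and 13.10. Markers of adjoining regions are given as group means, since probesets of different genes cannot be compared by level. Striatal Drd1 lay between 10.07 and 10.94 and striatal Syndig1l between 6.57 and 6.89. Hypothalamic Pmch, Hcrt and Trh lay between 12.54 and 13.94, between 10.35 and 13.11 and between 6.65 and 7.15, and Slc17a7 and Neurod6 of cortex and hippocampus between 4.84 and 5.10 and between 3.99 and 4.35. Neurod2 and Tbr1, also of cortex and hippocampus, lay between 7.16 and 7.40 and between 6.63 and 7.43. The tissue was bulk, so fewer cells of a type and less RNA per cell cannot be told apart.

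Opioid peptides are cut from large precursors in neurons that make them, are stored in dense core vesicles and act on G protein-coupled receptors of other neurons. Dynorphins, from Pdyn, act mainly on the kappa receptor encoded by Oprk1. Enkephalins, from Penk, act on the delta and mu receptors encoded by Oprd1 and Oprm1, and nociceptin, from Pnoc, acts on the receptor encoded by Oprl1. All 4 receptors couple to inhibitory G proteins, which lower cyclic AMP, open inwardly rectifying potassium channels and close calcium channels. In the extended amygdala, dynorphin and the kappa receptor are known for aversive states and for drinking after alcohol dependence, and nociceptin for opposing stress peptides.

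Across the 4 times, 2 member probesets were called once each and both were higher in CIE mice. Oprk1 1446394_at was higher at 0 h, by 0.45 (SE 0.08, adjusted p = 0.000217 by limma), a 1.36-fold level. Pnoc 1425892_a_at was higher at 72 h, by 0.86 (SE 0.18, adjusted p = 0.00906 by limma), a 1.82-fold level. At 0 h, 1 of 13 member probesets was called, beside 2.4% of all probesets. At 72 h, 1 of 13 was called, beside 0.433% of all. No member was called at 8 h, where 0.557% of all probesets were, or at 7 d, where 0% were, and at those times 0 of 13 had an unadjusted limma p below 0.05, beside 10.5% and 4.94% of all. The mu and delta receptors, the nociceptin receptor, Pdyn and Penk were not called at any time.

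**Figure D1:**
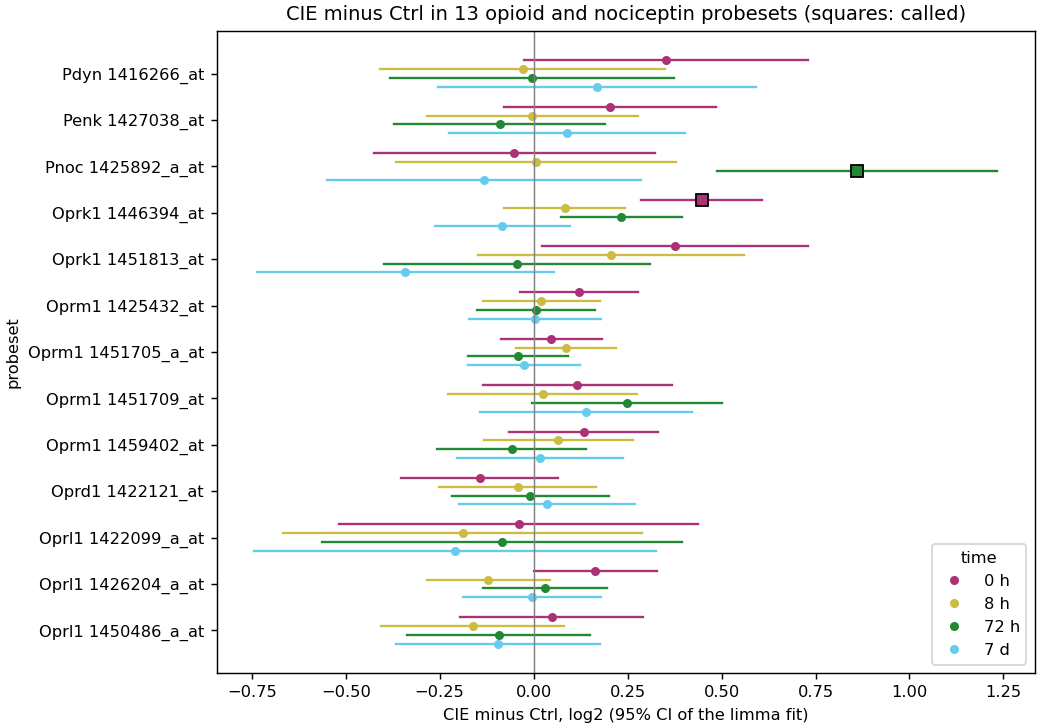
CIE minus Ctrl in log2 units (x axis) with 95% confidence intervals from the limma fit for the 13 member probesets (rows) at 4 times (colours); squares mark called differences. The 2 squares are Oprk1 1446394_at at 0 h, at 0.45, and Pnoc 1425892_a_at at 72 h, at 0.86.

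Among the peptide precursors, Pdyn 1416266_at had its lowest group mean in Ctrl mice at 0 h and its highest in CIE mice at 7 d. At 0 h the 6 Ctrl values were 7.63, 7.73, 8.04, 8.05, 8.15 and 8.26. The 6 CIE values at that time were 7.84, 8.10, 8.19, 8.51, 8.56 and 8.76. The ranges overlapped, and 3 of 6 CIE mice exceeded the highest Ctrl mouse. The difference of 0.35 (SE 0.19) had a 95% interval up to 0.73 and an adjusted p of 0.353 by limma. At 8 h, 72 h and 7 d the Pdyn differences were -0.03, 0.00 and 0.17, with adjusted p of 0.985, 0.997 and 1 by limma. With the mean of 14 striatal markers as a covariate, the Pdyn difference at 0 h was 0.05 (adjusted p = 0.82 by limma).

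Penk 1427038_at was not called at any time either. At 0 h Ctrl mice ranged from 11.94 to 12.51 with a median of 12.30, and CIE mice from 12.14 to 12.88 with a median of 12.45. The ranges overlapped at every time. Differences at 0 h, 8 h, 72 h and 7 d were 0.20 (SE 0.14), 0.00 (SE 0.14), -0.09 (SE 0.14) and 0.09 (SE 0.16). The limma adjusted p at 0 h was 0.528, and the 95% interval of that difference ended at 0.48. With the striatal marker mean as a covariate it was -0.03 (adjusted p = 0.813 by limma).

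The Pnoc precursor was called at 72 h, with no overlap between the arms. At 72 h the 6 Ctrl values were 8.41, 8.46, 8.55, 8.68, 8.89 and 9.17. The 6 CIE values were 9.37, 9.54, 9.54, 9.57, 9.60 and 9.72. Every CIE mouse read above every Ctrl mouse, and the CIE mice lay close together, with an SD of 0.11 against 0.29 in Ctrl. Ctrl mice at 72 h had the lowest Pnoc mean of the 8 groups, 8.69 ± 0.29 (SD, n = 6), and CIE mice at 72 h the highest, 9.56 ± 0.11 (SD, n = 6). The other 6 group means lay between 9.08 and 9.30.

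The limma test over times did not call Pnoc within either arm, with an adjusted p of 0.0454 over the Ctrl groups and 0.204 over the CIE groups. The differences between single times are therefore given as a description, with unadjusted intervals. Ctrl at 72 h was below Ctrl at 0 h, 8 h and 7 d by 0.43, 0.60 and 0.55 in size, and none of the 95% intervals included 0. CIE at 72 h was above CIE at 0 h by 0.48 and above CIE at 7 d by 0.45, both with intervals that excluded 0, and above CIE at 8 h by 0.26, with an interval from -0.12 to 0.63. In the order of the 8 group means, the step from Ctrl at 72 h to the next group, CIE at 0 h, was 0.38 and exceeded its 95% interval, and the other 6 steps between neighbours did not.

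The Pnoc differences at the remaining times were -0.05 at 0 h, 0.01 at 8 h and -0.13 at 7 d (SE 0.18, 0.18 and 0.21). The test of whether the CIE difference itself changed between times gave an adjusted p of 0.0541 for Pnoc by limma and did not pass. The Pnoc call lay close to the threshold. Over all 46 fits with 1 array left out, the differences ran from 0.80 to 0.96, with adjusted p up to 0.0352 by limma. Left out in this way, 24 of the 46 arrays ended the call. These were all 6 CIE mice at 72 h and 5 of the 6 Ctrl mice at 72 h (all but replicate 24), and, with the difference unchanged at 0.86, Ctrl replicates 30, 38 and 64 at 0 h, 8 and 42 at 8 h and 46 at 7 d, and CIE replicates 17, 26, 43 and 57 at 0 h, 23 at 8 h, and 45 and 65 at 7 d.

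**Figure D2:**
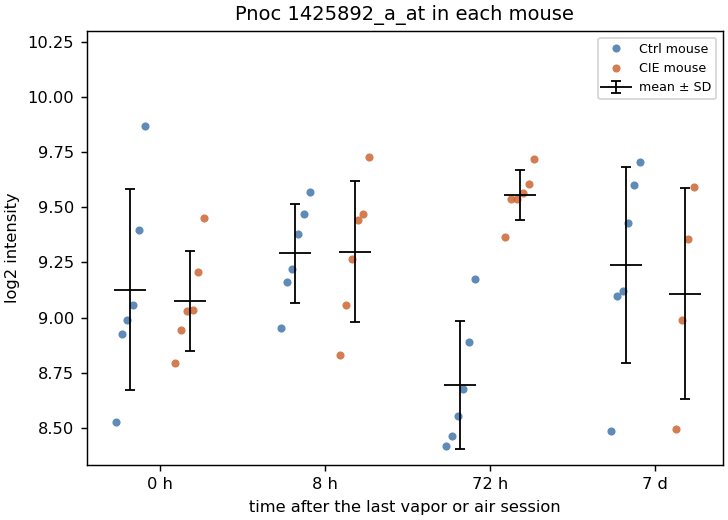
Pnoc 1425892_a_at in each mouse (points, log2 intensity on the y axis) by time after the last session (x axis) and arm (colour), with mean and SD. At 72 h all 6 CIE mice, from 9.37 to 9.72, sit above all 6 Ctrl mice, from 8.41 to 9.17, while the arms overlap at the other 3 times.

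Markers of cell types and neighbouring regions also differed between the arms at 72 h. Over all 18193 genes, each read from 1 probeset, 17% had an unadjusted limma p below 0.05 at this time. The mean of the 17 BNST inhibitory markers measured lay between 9.83 and 10.06 in Ctrl and between 10.21 and 10.35 in CIE. In that list 15 of 17 differences were positive, 14 had an unadjusted limma p below 0.05 and none was called higher, while Lhx8, a transcription factor of basal forebrain neurons and the list's only called gene, was lower by 0.82 in size (SE 0.16, adjusted p = 0.00505 by limma). The mean of the 5 thalamic markers lay between 9.28 and 9.39 in Ctrl and between 9.20 and 10.12 in CIE, with 4 of 5 positive, all 5 at an unadjusted limma p below 0.05 and none called.

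All 3 cholinergic marker differences were negative at 72 h, and Slc5a7, the choline transporter, was called (-0.59, SE 0.13, adjusted p = 0.00879 by limma). Their mean lay between 5.99 and 6.22 in Ctrl and between 5.43 and 6.06 in CIE. Differences of the 6 microglial markers were all negative at 72 h, all 6 at an unadjusted limma p below 0.05 and none called, and their mean lay between 10.21 and 10.35 in Ctrl and between 9.72 and 10.06 in CIE. Of the 6 hypothalamic markers, 2 were positive, 4 had an unadjusted limma p below 0.05 and none was called, with a mean between 10.21 and 10.94 in Ctrl and between 9.07 and 10.75 in CIE. That mean pooled both signs, with Hcrt at -1.915 (SE 0.85, adjusted p = 0.313 by limma) and Trh at 0.43 (SE 0.18, adjusted p = 0.247 by limma). All 5 oligodendrocyte differences were negative and none was called (4 at an unadjusted limma p below 0.05), and the mean of these markers lay between 12.58 and 12.67 in Ctrl and between 12.38 and 12.53 in CIE. The astrocyte mean lay between 11.28 and 11.39 in Ctrl and between 11.02 and 11.28 in CIE. The striatal mean lay between 9.46 and 10.03 in Ctrl and between 9.28 and 9.83 in CIE, with 1 of 14 differences positive. Of the cortical or hippocampal markers, 3 of 4 were positive and none was called. Their mean lay between 5.781 and 6.015 in Ctrl and between 5.476 and 6.014 in CIE. Tbr1 of that list was at -0.79 (adjusted p = 0.0876 by limma), with all 6 CIE mice below the Ctrl mice.

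The Pnoc difference was refitted with some of these lists. The thalamic and hypothalamic means each pooled markers that differed in both directions at 72 h. With these means as covariates, the Pnoc difference was 0.79 with an adjusted p of 0.0352 by limma, which ended the call. With the striatal marker mean as a covariate it was 0.80 with an adjusted p of 0.00557. The part of the cholinergic, microglial, oligodendrocyte, astrocyte, cortical or hippocampal and BNST markers in the Pnoc difference was not tested.

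Among the receptor probesets, Oprk1 1446394_at had the largest difference at 0 h. On 1446394_at the 6 Ctrl values at 0 h were 7.14, 7.36, 7.38, 7.42, 7.44 and 7.70. The 6 CIE values were 7.74, 7.82, 7.83, 7.83, 7.85 and 8.05. All 6 CIE mice were above all 6 Ctrl mice, with group means of 7.85 ± 0.10 and 7.41 ± 0.18 (SD, n = 6 each). Leaving out any 1 array kept the call, with differences between 0.39 and 0.51 and adjusted p up to 0.00146 by limma. Fitted to the 12 arrays at 0 h alone, the same difference had an adjusted p of 0.0131 and was not called.

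The Oprk1 1446394_at difference at 8 h was 0.08 (SE 0.08, adjusted p = 0.824 by limma), where Ctrl mice ranged from 7.50 to 7.96 and CIE mice from 7.56 to 8.06. At 72 h it was 0.23 (SE 0.08, adjusted p = 0.133 by limma). Ctrl mice then ranged from 7.52 to 7.57 and CIE mice from 7.69 to 7.93, so that the arms did not overlap although the difference was not called. At 7 d it was -0.08 (SE 0.09, adjusted p = 1 by limma), with Ctrl from 7.54 to 7.92 and CIE from 7.56 to 7.74.

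The test over the 4 times together called Oprk1 1446394_at, with an adjusted p of 0.000583 by limma. It was 1 of 13 member probesets called, beside 2.84% of all probesets. The test of a change in the CIE difference between times called 0 of 13 at the 0.01 threshold, beside 1.04% of all, and 3 of 13 had an unadjusted limma p below 0.05, beside 13.8% of all. The adjusted p of Oprk1 1446394_at in that test was 0.0258, so a difference in the CIE effect between times was not called for this probeset.

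Times within an arm were also compared, and members were called no more often there than probesets at large. Over the Ctrl groups 1 of 13 member probesets, again Oprk1 1446394_at, was called (adjusted p = 0.00193 by limma), beside 10.9% of all probesets. Its Ctrl mean was lowest at 0 h, and it was higher by 0.37 at 8 h and by 0.31 at 7 d, both with 95% intervals that excluded 0, and by 0.14 at 72 h, with an interval from -0.02 to 0.31. Over the CIE groups 0 of 13 were called, beside 7.76% of all probesets, with 3 of 13 at an unadjusted limma p below 0.05, beside 27.4% of all, and Oprk1 1446394_at had an adjusted p of 0.209. The CIE mean at 0 h, 7.85, was close to the Ctrl mean at 8 h, 7.78, whereas the Ctrl mean at 0 h was the lowest of the 8 group means. None of the 7 steps between neighbours in that order exceeded its 95% interval.

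The other Oprk1 probeset, 1451813_at, was not called at any time. The annotation ties it to another sequence record than 1446394_at, and which transcripts each probeset detects was not tested. At 0 h Ctrl mice ranged from 6.43 to 7.32 with a median of 7.13, and CIE mice from 7.08 to 7.80 with a median of 7.30. The difference was 0.38 (SE 0.18, adjusted p = 0.262 by limma), in the direction of 1446394_at, with overlapping ranges. At 8 h, 72 h and 7 d the differences were 0.21, -0.04 and -0.34, so that the sign was that of 1446394_at at 8 h and 7 d and not at 72 h. The difference between the probesets was not tested. Within groups the correlation of the 2 Oprk1 probesets across the 46 mice was 0.00 (Pearson, rho -0.07, permutation p = 0.996 and 0.69, adjusted p = 0.996 and 0.767 over 10 pairs, and r = -0.16 without the 2 most extreme mice). The mean of both probesets at 0 h was higher in CIE by 0.41 (SE 0.10, adjusted p = 0.00482 by limma over 18193 genes). That mean holds the called 1446394_at, so it does not show whether the 2 probesets report the same change. The call at 0 h is therefore given for 1446394_at and not for all Oprk1 transcripts.

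**Figure D3:**
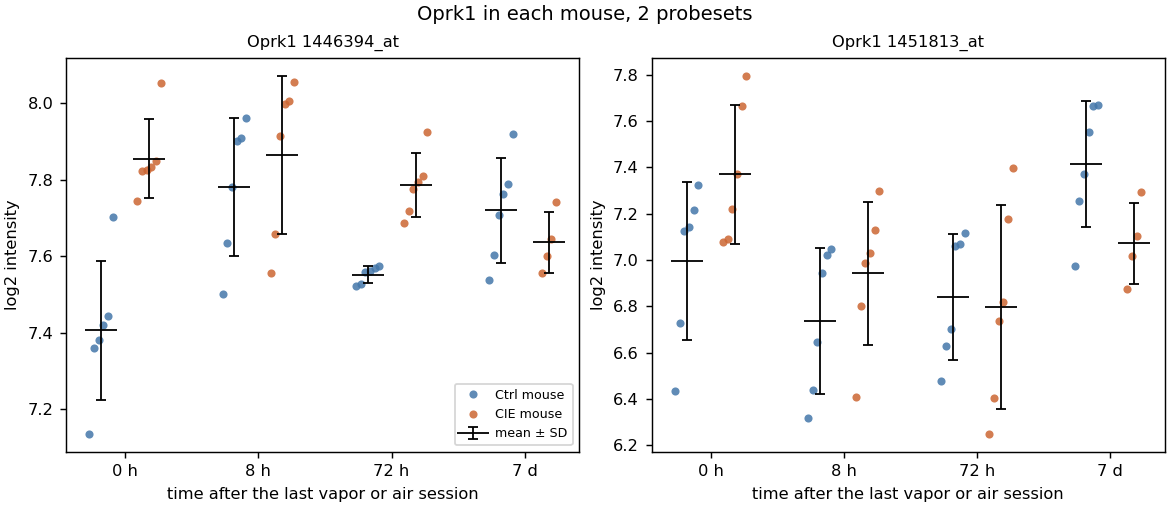
Both Oprk1 probesets in each mouse (points, log2 intensity on the y axis) by time (x axis) and arm (colour), with mean and SD. On 1446394_at the CIE mice at 0 h, from 7.74 to 8.05, lie above the Ctrl mice, from 7.14 to 7.70, and on 1451813_at the arms overlap at each time.

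Over all 18193 genes, each read from 1 probeset, 20% had an unadjusted limma p below 0.05 at 0 h, when Oprk1 1446394_at was called. At that time all 14 differences of the striatal markers measured were positive, 3 of them at such a p, and none was called. Their mean lay between 9.09 and 9.78 in Ctrl and between 9.40 and 10.45 in CIE, so the groups overlapped. Drd1 and Drd2, the dopamine receptors of the direct and indirect pathway spiny neurons, differed by 0.46 and 0.33, with adjusted p of 0.473 and 0.514 by limma. With the striatal marker mean as a covariate, the Oprk1 1446394_at difference was 0.39 with an adjusted p of 0.000729 by limma. In other marker lists, Kl of the choroid plexus was called higher by 0.42 (SE 0.08) and Kdr of the endothelium lower by 0.40 in size (SE 0.07). Of the 6 choroid plexus markers 5 were positive at 0 h, and all 6 endothelial markers were negative. The choroid plexus mean lay between 5.94 and 6.26 in Ctrl and between 6.13 and 6.53 in CIE, and the endothelial mean between 8.55 and 8.94 and between 8.46 and 8.60. Differences at 0 h were positive for 0 of 5 thalamic, 0 of 3 cholinergic, 1 of 6 microglial and 2 of 6 astrocyte markers, and limma called none of them, with 0, 0, 2 and 2 at an unadjusted p below 0.05. The thalamic mean lay between 9.30 and 9.97 in Ctrl and between 9.10 and 9.56 in CIE, and the cholinergic mean between 5.65 and 6.32 and between 5.62 and 5.95. The microglial mean lay between 9.97 and 10.40 in Ctrl and between 9.77 and 10.20 in CIE, and the astrocyte mean between 11.14 and 11.43 and between 11.12 and 11.22. Aqp4, the water channel of astrocytes, was at -0.31 (adjusted p = 0.0373 by limma) with all 6 CIE mice below the Ctrl mice, and P2ry12 of microglia at -0.37 (adjusted p = 0.0232). Of the BNST, hypothalamic, oligodendrocyte and cortical or hippocampal markers, 8 of 17, 4 of 6, 3 of 5 and 2 of 4 were positive. The part of the lists other than the striatal one in the Oprk1 difference was not tested.

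Oprm1, the mu receptor through which morphine acts, had 4 probesets, and their 16 differences from Ctrl lay between -0.06 and 0.25. The largest was on 1451709_at at 72 h (0.25, SE 0.12, adjusted p = 0.407 by limma). On it Ctrl mice ranged from 5.92 to 6.28 with a median of 6.15, and CIE mice from 5.93 to 6.70 with a median of 6.37. The lowest CIE mouse was thus within the Ctrl range, and 3 of 6 were above it. Probeset 1451709_at was only loosely tied to the rest, with within-group correlations of -0.06, 0.28 and -0.12 with 1425432_at, 1451705_a_at and 1459402_at, and permutation p of 0.728, 0.0975 and 0.506 (adjusted p of 0.809, 0.195 and 0.633 over 10 pairs, rho of 0.01, 0.23 and -0.11). The 3 other Oprm1 probesets differed by at most 0.13 in size at any time. The dimmest of them, 1451705_a_at, had a mean of 3.87 over all arrays, and whether it detected the transcript was not tested.

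Oprd1 1422121_at, the delta receptor, had the narrowest set of differences among the genes with 1 probeset. They were -0.14 (SE 0.10) at 0 h, -0.04 (SE 0.10) at 8 h, -0.01 (SE 0.10) at 72 h and 0.04 (SE 0.12) at 7 d. The 8 group means spanned 0.14 log2 units. All 8 lay between 5.05 and 5.20. At 72 h the 95% interval ended at 0.20, so a CIE rise of the probeset's signal above that size lay outside it. The mean of this probeset over all arrays was 5.11, below the array medians. Whether it detected the transcript was not tested, so the interval does not bound a change of Oprd1 RNA.

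Oprl1, the nociceptin receptor, had 3 probesets, none of them called. On 1426204_a_at at 0 h, Ctrl mice ranged from 10.51 to 10.84 and CIE mice from 10.59 to 10.89, with a difference of 0.16 (SE 0.08, adjusted p = 0.302 by limma). At 72 h, when Pnoc was called, the differences of 1422099_a_at, 1426204_a_at and 1450486_a_at were -0.08, 0.03 and -0.09. At 8 h all 3 were negative, at -0.19, -0.12 and -0.16. Within groups 1450486_a_at followed both other probesets (r = 0.66 and 0.72, rho = 0.58 and 0.68, permutation p = 1e-05 and 2e-05, adjusted p = 0.0001 for each over 10 pairs, r = 0.58 and 0.65 without the 2 most extreme mice), and r between those 2 was 0.19 (rho = 0.19, permutation p = 0.198, adjusted p = 0.33, r = 0.20 without the 2). Probeset 1422099_a_at was the most variable member, with a residual SD of 0.43, and its group means at 0 h and 8 h were 8.31 and 7.69 in Ctrl and 8.27 and 7.50 in CIE. The test over the Ctrl times gave it an adjusted p of 0.0848 by limma and the test over the CIE times 0.0775, so neither time course was called.

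Over the 13 probesets, 10 differences were positive at 0 h with a median of 0.12, beside a median of -0.003 over all probesets. At 8 h, 72 h and 7 d, 7, 5 and 6 of 13 were positive, with medians of 0.01, -0.01 and -0.01. The median size of the differences without sign was 0.13 at 0 h and 0.07, 0.06 and 0.09 afterwards, beside 0.07, 0.06, 0.06 and 0.05 over all probesets. These sizes were not adjusted for spread. The residual SD ran from 0.11 to 0.43 among the members, beside a median of 0.135 over all probesets, and a wider spread alone gives larger sizes. Of the 13 probesets, 3 had an unadjusted limma p below 0.05 at 0 h and 2 at 72 h. Over all probesets the share with such a p was 16.5% at 0 h and 12.6% at 72 h.

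Members differed in how they moved from mouse to mouse with the striatal markers, as computed over 46 mice after subtracting group means, with 100000 permutations within groups and adjustment over 7 genes. Penk followed the striatal marker mean most closely (r = 0.97, rho = 0.97, permutation p = 1e-05, adjusted p = 3.5e-05), and so did Pdyn (r = 0.94, rho = 0.94, permutation p = 1e-05, adjusted p = 3.5e-05), where 1e-05 is the smallest p these permutations can give. Without the 2 most extreme mice r was 0.97 and 0.93. The 2 precursors followed each other with r = 0.94 and rho = 0.92 (permutation p = 1e-05, adjusted p = 0.00021 over 21 pairs, r = 0.93 without the 2 most extreme mice).

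The remaining members were less closely tied to these markers. Oprk1 1446394_at gave r = 0.41 and rho = 0.44 (permutation p = 0.0142 and 0.00678, adjusted p = 0.0249 and 0.0158, r = 0.51 without the 2 most extreme mice). In the Ctrl mice alone r was 0.47 and its adjusted p 0.0866. Oprl1 1426204_a_at ran the other way (r = -0.56, rho = -0.41, permutation p = 0.00177 and 0.0145, adjusted p = 0.00413 and 0.0254, r = -0.41 without the 2 most extreme mice). For Pnoc, r was -0.35 (rho = -0.27, permutation p = 0.0488 and 0.0999, adjusted p = 0.0683 and 0.117, r = -0.18 without the 2 most extreme mice), which did not pass. Oprm1 1451709_at (r = 0.24, rho = 0.29, permutation p = 0.149 and 0.0633, adjusted p = 0.174 and 0.0886, r = 0.32 without the 2) and Oprd1 (r = 0.00, rho = 0.01, permutation p = 0.977 and 0.927, adjusted p = 0.977 and 0.927, r = -0.10 without the 2) did not pass either. Hybridization batches were not given per array, so none of these relations could be recomputed within a batch.

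**Figure D4:**
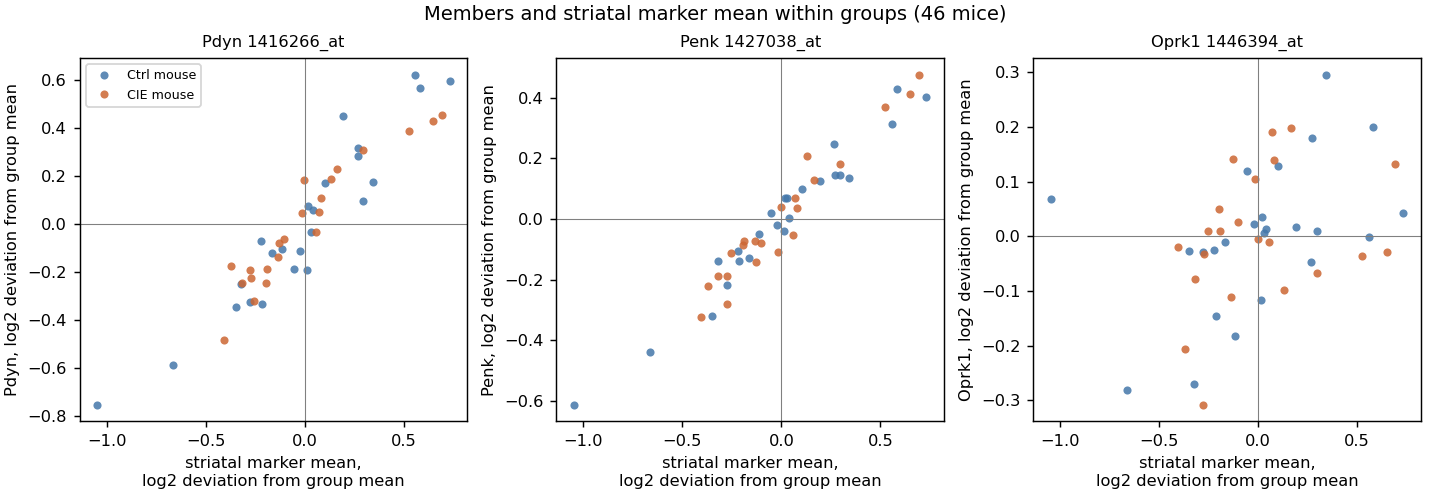
Deviation of Pdyn, Penk and Oprk1 1446394_at from their group means (y axes, log2) against the deviation of the mean of 14 striatal markers (x axes, log2) in 46 mice, coloured by arm. Pdyn and Penk lie along a line, with r of 0.94 and 0.97, and Oprk1 scatters widely, with r of 0.41.

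The genes most like each member were ranked by Pearson's r over all 46 arrays among 18192 other genes, as a description. The ranking used the differences between groups as well, so values of these genes at the time of a member's call were not independent of it and are given without a test. For Penk they were Drd1 (r = 0.96), Camk4 (r = 0.96) and Tesc (r = 0.96), and for Pdyn Smpd3 (r = 0.95), Phactr1 (r = 0.94) and Lzts3 (r = 0.94). For Pnoc they were Nr2f1 (r = 0.87), Dlx1 (r = 0.87) and Dnajc6 (r = 0.84), with 0.84, 0.86 and 0.79 once group means were removed. Nr2f1, a nuclear receptor of developing and adult neurons, differed by 0.44 (SE 0.09) at 72 h. Dlx1, a transcription factor of inhibitory neurons that is also on the BNST marker list, differed by 0.61 (SE 0.16) and Dnajc6 by 0.17 (SE 0.04).

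For Oprk1 1446394_at the leading genes were Fndc1 (r = 0.81), Ets2 (r = 0.80) and Bnip5 (r = 0.78), with 0.69, 0.67 and 0.50 once group means were removed. At 0 h Fndc1, Ets2 and Bnip5 differed by 0.30 (SE 0.09), 0.45 (SE 0.12) and 0.42 (SE 0.07). The closest genes to the remaining receptors were Smarca1, Cdo1 and Gpd1l for Oprm1 (r from 0.74 to 0.76), 3830417A13Rik, P2rx2 and Bdkrb2 for Oprd1 (r from 0.70 to 0.71) and Cd83, Gpx3 and Atg9b for Oprl1 (r from 0.84 to 0.85).

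Of 58 further genes that make, cut, bind or relay opioid peptides, or that control transcription, 55 had a probeset and each was read from 1. At 0 h, 2 of 55 were called, both lower in CIE, and at 72 h 4 were called, of which 3 were higher and 1 lower. Of these calls, 1 at 0 h and 1 at 72 h fell among the 8 genes of transcriptional control. At 8 h and 7 d limma called none of 55. At an unadjusted p below 0.05 there were 10, 10, 19 and 0 of 55 at 0 h, 8 h, 72 h and 7 d, beside 20%, 12.3%, 17% and 3.48% of all genes read in the same way. Of these genes, Rgs9 and Adcy5 are also on the striatal marker list. Over all 18193 genes read in this way, 3.09%, 0.742%, 0.687% and 0% were called at 0 h, 8 h, 72 h and 7 d.

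The receptors' effectors held 3 of the 6 called differences. Kcnj3, a subunit of the potassium channels that opioid receptors open, was higher in CIE at 72 h, with group means of 9.86 ± 0.10 and 9.30 ± 0.16 (SD, n = 6 each), a difference of 0.56 (SE 0.10, adjusted p = 0.00205 by limma). Kcnj9, another subunit of these channels, was higher by 0.46 (SE 0.10, adjusted p = 0.00878 by limma) at 72 h. For both, all 6 CIE mice were above all 6 Ctrl mice, as for Pnoc at that time. Their differences at 0 h, 0.03 and -0.15, were not called. Cacna1a, the pore of a calcium channel that these receptors inhibit, was lower by 0.27 in size (SE 0.06, adjusted p = 0.00184 by limma) at 0 h, and 5 of 6 CIE mice were below the lowest Ctrl mouse.

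Among genes of transcriptional control, Fos, an immediate early gene that follows neuronal activity, was lower in CIE at 0 h by 0.74 in size (SE 0.14, adjusted p = 0.000587 by limma), with all 6 CIE mice below the Ctrl range. Its group means at that time were 8.45 ± 0.27 in CIE and 9.19 ± 0.16 in Ctrl (SD, n = 6 each). At 8 h the Fos difference was 0.48 (adjusted p = 0.0896 by limma) and was not called. Nr3c1, the glucocorticoid receptor, was higher by 0.26 (SE 0.05, adjusted p = 0.00301 by limma) at 72 h, again with no overlap of the arms. Ackr3, a scavenging receptor that takes up opioid peptides, was lower by 0.34 in size (SE 0.07, adjusted p = 0.0094 by limma) at 72 h, without overlap.

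**Figure D5:**
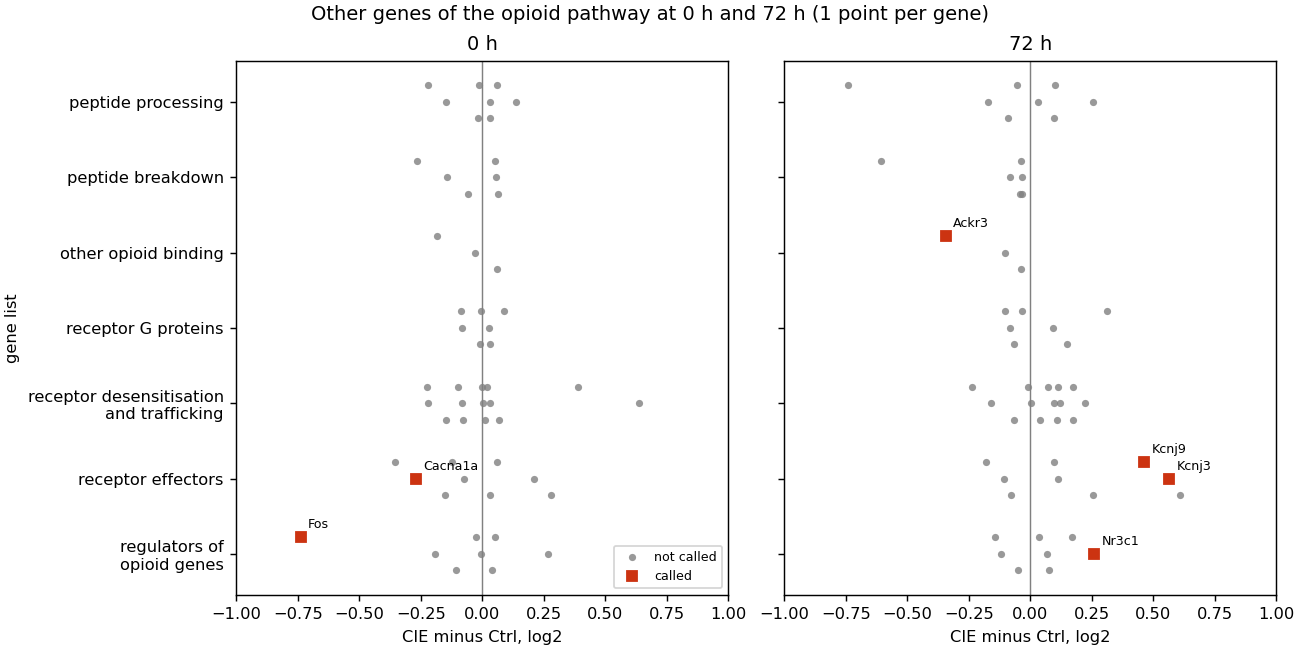
CIE minus Ctrl in log2 units (x axes) at 0 h and 72 h for 55 other genes of the opioid pathway and of transcriptional control, 1 point each, in 7 lists (y axis). Squares mark called genes. At 0 h Fos (-0.74) and Cacna1a (-0.27) stand to the left, and at 72 h Kcnj3 (0.56), Kcnj9 (0.46) and Nr3c1 (0.26) to the right and Ackr3 (-0.34) to the left.

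By limma no gene was called among those that cut the precursors, break the peptides down, form the receptors' G proteins or desensitise and move the receptors. Of the 8 processing genes, Pcsk1, a convertase that cuts opioid precursors, came nearest, with -0.74 at 72 h (SE 0.21, adjusted p = 0.0519 by limma) and all 6 CIE mice below the Ctrl mice. Cpd, a carboxypeptidase, was at -0.17 (adjusted p = 0.157) at 72 h. Of the 6 breakdown genes, Mme, which encodes the enkephalin-degrading enzyme neprilysin, was at -0.61 (SE 0.15, adjusted p = 0.0203 by limma) at 72 h, and all 6 differences at 72 h were negative. Ece1 was at -0.13 (adjusted p = 0.052) at 8 h. The G protein subunits Gnao1 and Gng2 were at 0.15 (adjusted p = 0.0447) and 0.31 (adjusted p = 0.0534) at 72 h. In the desensitisation and trafficking list, Rtp4, which carries opioid receptors to the cell surface and is also induced by interferon, was at 0.64 (SE 0.16, adjusted p = 0.0107 by limma) at 0 h, and Gprasp1, a sorting protein for internalised receptors, at 0.12 (adjusted p = 0.0692) at 72 h. All 6 CIE mice were above the Ctrl mice for both. The 4 lists together held 35 genes, of which 4, 3, 13 and 0 had an unadjusted limma p below 0.05 at 0 h, 8 h, 72 h and 7 d. Over all genes read in the same way the shares were 20%, 12.3%, 17% and 3.48%.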

How the data were processed

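BNST RNA of 46 mice was hybridised to Affymetrix mouse expression arrays. Per the study's methods, the authors applied RMA and quantile normalization within hybridization batches, quantile normalized all arrays again and removed batch with ComBat, and the deposited values are log2 intensities. Removing batch before the test can make p-values too small. The batch of each array, software versions and genome positions are not given in the sources used here, and no detection calls were used, so probesets were not called absent and different genes were not compared by level.

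Groups came from sample titles, 1 mouse per array, and the 46 arrays limit the precision. No 2 arrays were identical. Probesets were named by the platform annotation (34945 with 1 symbol, 932 with several, 9160 with none), and a gene with several was read from the one with the highest mean. Group means of the 8 groups were fitted with limma 3.58.1 in R 4.3.3 on 45037 probesets without a low-level filter, and Benjamini-Hochberg adjustment ran within each comparison. The 4 comparisons of CIE with Ctrl used separate mice, and tests over times reused them. Correlations used permutation tests (numpy 2.4.6, scipy 1.17.1). The fit was also run on simulated data with independent normal noise in each probeset. Those data held no relation between genes, no batch step and no mix of tissues, so that run does not bear on whether the calls here hold. The members, lists and tests were chosen with earlier results of these data known. Every member probeset was named. In pathway lists every called gene was named, or the 2 with the smallest p where none was called, and for each member the 3 genes with the highest r. Of marker genes, Drd1, Drd2 and those called when a member was called were named, and Gad1, Pmch, Hcrt, Trh, Syndig1l, Slc17a7, Neurod6, Neurod2, Tbr1, Aqp4 and P2ry12 were named besides, after their values were seen. Alternatives are given in the closing section. The study describes 6 CIE mice at 7 d, and 4 were analysed here.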

Additional observations from a re-analysis of the deposited data

Results flagged for a closer look

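In 104 sets of values (13 probesets in 8 groups), 4 held a mouse set far apart from the rest of its group by Dixon's test at the 95% level, where chance alone marks about 5% of sets, or 5.2 here. In CIE mice at 0 h, replicate 17 read 8.051 on Oprk1 1446394_at, and the nearest other mouse read 7.849. Without it the CIE difference at 0 h was 0.41 with an adjusted p of 0.00125 by limma. In CIE mice at 8 h, replicate 21 read 5.888 on Oprm1 1451709_at, below the nearest at 6.455. On Oprl1 1422099_a_at, replicate 34 of Ctrl at 72 h read 7.045, below the nearest at 7.834, and replicate 70 of Ctrl at 7 d read 7.549, below the nearest at 8.245.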

How the results depend on the processing

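The Oprk1 1446394_at difference at 0 h was called in 9 of 10 alternative settings (0.39 to 0.47), and the Pnoc difference at 72 h in 9 of 10 (0.79 to 0.86). In both counts 1 of the 10 was the main fit itself, listed for its 0.05 threshold, so that call was fixed beforehand. Fitted on the groups compared alone, 0 members were called at 0 h (Oprk1 adjusted p = 0.0131 by limma). With thalamic and hypothalamic marker means as covariates, chosen after seeing the data, 0 were called at 72 h. With array weights, and also with an adjusted p of 0.05, the members called were 2 over the 4 times, 1 for the change between times and 3 over the Ctrl times. With 2 residual components as covariates they were 2 at 0 h (Oprk1 1451813_at joined, adjusted p = 0.00286 by limma), 3 over the 4 times, 2 for the change, 3 over the Ctrl times and 2 over the CIE times. These components came from the residuals of the same fit, so they left the differences unchanged and removed residual spread. More calls were thus built into this setting, and they do not bear on whether the differences hold. At an adjusted p of 0.05, 5, 1 and 7 pathway genes were called at 0 h, 8 h and 72 h, and 1 at 0 h from the mean of a gene's probesets. On raw values r with the striatal markers was -0.344 for Pnoc (now passing) and 0.253 for Oprk1 (no longer passing), and in Ctrl mice alone 0.468 for Oprk1 and -0.507 for Oprl1, neither passing. Leaving out 1 array gave 0 to 1 members at 72 h, 1 to 2 over the 4 times (2 without Ctrl replicate 48 at 0 h or 36 at 7 d), 0 to 1 for the change (1 without that replicate 48), 1 to 2 over the Ctrl times (2 without Ctrl replicate 12 at 0 h or 70 at 7 d) and 1, 0, 0 and 0 at 0 h, 8 h, 7 d and over the CIE times. The 50 differences not called gave 496 values under alternatives, of which 23 changed sign and 1 was called, and 2300 with 1 array left out, of which 71 changed sign and 0 were called by limma. The 496 included the main fit's own values, which could not change sign. The 1 call among them was Oprk1 1451813_at with the residual components. The causes were not tested. No paired analysis was possible because no replicate number is shared between groups.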
